A study of Mus musculus with 4 samples.

Results

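The cells described here were 168 of the 28262 cells within common limits in 4 single-cell libraries of cultured mouse adipose cells, and they carried transcripts of mature adipocytes. They were chosen by their own UMIs (unique molecular identifiers, each standing for 1 captured RNA molecule) of 6 genes: at least 1 UMI of *Adipoq*, and at least 1 UMI in 2 or more of *Cfd*, *Car3*, *Retn*, *Cidec* and *Plin1*. The common limits were 5000 to 75000 UMIs, 200 to 7500 genes and less than 10% of UMIs from mitochondrial genes. The other 28094 cells within these limits, taken library by library, were the comparison.

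The libraries came from inguinal (iWAT) and epididymal (eWAT) white fat of male C57BL/6J mice on a chow diet. DFAT cells are de-differentiated fat cells, obtained by letting isolated mature adipocytes attach and spread in ceiling culture, in which buoyant fat cells float up against a growth surface. The ASPC libraries held the stromal vascular fraction (SVF) of the same depots, expanded on plastic as adipose stem and progenitor cells. All 4 cultures were lifted with trypsin, sorted with the dead-cell dye 7-AAD and run through the 10x Genomics droplet assay as 1 library each, iWAT_DFAT, eWAT_DFAT, iWAT_ASPC and eWAT_ASPC, so there were no replicates, and the intervals below (exact, 95%) cover counting error only.

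Mature adipocytes store triglyceride in a lipid droplet coated by perilipins, take up fatty acids from lipoproteins, release them again through lipolysis, and secrete hormones such as adiponectin. This program is switched on during differentiation by PPARγ and C/EBPα, whose target genes include most of the lipid-handling genes below. Progenitors and DFAT cells make collagens, matrix-remodelling enzymes and, in culture, contractile proteins, and they divide.

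The cells with adipocyte transcripts were found almost entirely in the DFAT libraries. The iWAT_DFAT library held 28 among 7629 cells, a share of 0.367% (0.244 to 0.530). The eWAT_DFAT library held 136 among 6464 cells, a share of 2.10% (1.77 to 2.48). The iWAT_ASPC library held 2 among 7424 cells (0.0269%, 0.00326 to 0.0973) and the eWAT_ASPC library 2 among 6745 cells (0.0297%, 0.00359 to 0.107). The intervals of the 2 DFAT shares did not overlap each other or those of the ASPC shares, but with 1 library per culture, depot and cell source cannot be told apart from the library. Within the limits, at least 1 *Adipoq* UMI was seen in 40 iWAT_DFAT, 213 eWAT_DFAT, 11 iWAT_ASPC and 4 eWAT_ASPC cells. Just outside the threshold, 11 iWAT_DFAT and 53 eWAT_DFAT cells had *Adipoq* but none of the 5 further genes, and 1 and 24 cells had exactly 1 of them. Another 81 and 235 DFAT cells had 2 or more of the 5 without an *Adipoq* UMI. Just inside it, 11 of the 28 and 29 of the 136 cells had exactly 2 of the 5, whereas 4 and 49 cells had all 5.

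The libraries held 211396227 to 242282812 UMIs each. The cells with adipocyte transcripts were not the deepest cells: their median was 19430 UMIs in iWAT_DFAT against 22111 in the other cells, and 20560 in eWAT_DFAT against 27559. Their median share of mitochondrial UMIs was higher, at 5.87% against 3.12% in iWAT_DFAT and 5.01% against 1.94% in eWAT_DFAT, and the nuclear RNA *Malat1* took 1.36% against 0.880% and 1.16% against 0.698% of all UMIs. What part these quality measures had in the results was not tested. None of the 168 barcode sequences was among the 97 that occurred in more than 1 library. Doublets were scored rather than removed, and 3 of the 28 (10.7%) and 10 of the 136 cells (7.35%) scored at or above the level reached by 6.23% and 7.97% of all cells of their libraries.

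The 6 genes that chose the cells encode adiponectin (*Adipoq*), complement factor D or adipsin (*Cfd*), carbonic anhydrase 3 (*Car3*), resistin (*Retn*) and the lipid droplet proteins CIDEC (*Cidec*) and perilipin 1 (*Plin1*). In the coordinates of GRCm38, *Adipoq* lies on chromosome 16 from 23146536 to 23158028 on the plus strand and *Plin1* on chromosome 7 from 79720218 to 79732903 on the minus strand. *Cfd* lies on chromosome 10 from 79890853 to 79892655 and *Car3* on chromosome 3 from 14863512 to 14872523, both on the plus strand. *Retn* lies on chromosome 8 from 3655770 to 3660110 on the plus strand and *Cidec* on chromosome 6 from 113424634 to 113435760 on the minus strand. The promoter of *Adipoq*, the gene that every chosen cell had to carry, is shown because it anchors the selection. It is given from 250 bases before to 50 bases after the start of the gene in RefSeq (GRCm38.p6, chr16:23146286-23146585, plus strand), with every CCAAT, read on either strand as CCAAT or ATTGG, in capitals:
Adipoq: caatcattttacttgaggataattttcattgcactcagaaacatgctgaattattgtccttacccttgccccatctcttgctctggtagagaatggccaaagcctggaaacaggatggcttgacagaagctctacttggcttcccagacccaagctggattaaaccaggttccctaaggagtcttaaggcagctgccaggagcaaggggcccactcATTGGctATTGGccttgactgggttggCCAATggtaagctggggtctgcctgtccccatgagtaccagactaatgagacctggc
It held 3 matches within a short stretch, while 37.4% of the 32851 RefSeq promoters of this length held at least 1. The motif was not common to the chosen genes: it was in 1 of 6 promoters of the 5 rule genes matched (16.7%) and in 15 of 45 promoters of 27 adipocyte genes higher in both DFAT libraries (33.3%). A match describes the letters only.

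Levels are given as CPM, the UMIs of a gene per 1000000 UMIs summed over a group of cells, and since the 6 genes made the choice their levels are a description. *Adipoq* stood at 329 CPM in the 28 iWAT_DFAT cells, 637 in the 136 eWAT_DFAT cells, and 351 and 345 in the 2 cells of each ASPC library. In the other cells of the same libraries it stood at 0.0710, 0.532, 0.0502 and 0.0101 CPM. *Cfd* was at 889 and 1194 CPM in the iWAT_DFAT and eWAT_DFAT cells against 0.186 and 0.833 in the others, and *Car3* at 1086 and 1569 against 0.251 and 3.13. *Plin1*, at 677 and 564 CPM, was the one of the 6 seen in the largest share of the other DFAT cells, in 10.8% of iWAT_DFAT and 11.9% of eWAT_DFAT cells against 0.337% and 0.845% of the other cells of iWAT_ASPC and eWAT_ASPC. *Retn* followed at 2.51% and 5.26% of the other DFAT cells, against 0.216% and 0.549%. Endothelial cells (3 or more of 7 endothelial markers), which should lack *Plin1*, held it in 4.76% (1 of 21) and 5.48% (8 of 146) of the 2 DFAT libraries, at median depths of 19703 and 11663 UMIs. At 5000 UMIs per cell, the shares were 4.30% and 5.12% in the other cells, and 4.76% (0.121 to 23.8) and 2.05% (0.426 to 5.89) in endothelial cells, so that only the eWAT_DFAT value lay above the endothelial one, with overlapping intervals.

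The 6 genes were unevenly spread among the chosen cells. In iWAT_DFAT, *Plin1* was seen in 27, *Retn* in 25, *Cfd* and *Cidec* in 13 each, and *Car3* in 8 of the 28 cells. In eWAT_DFAT, *Plin1* was seen in 134, *Retn* in 109, *Cfd* and *Cidec* in 90 each, and *Car3* in 87 of the 136 cells. The sum of the 6 genes ran from 7 to 562 UMIs per cell, median 40, in iWAT_DFAT, and from 3 to 531, median 75.5, in eWAT_DFAT. The UMIs were concentrated in a few cells in iWAT_DFAT, where 3 of the 28 held 53.5% of them, and less so in eWAT_DFAT, where 14 of the 136 held 35.1%. A single *Adipoq* UMI was the basis for 6 of the 28 and 29 of the 136 cells, and after each cell was thinned to 5000 UMIs 13 and 91 of them still met the rule.

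RNA free in the suspension also carried these genes. In droplets of 1 to 100 UMIs the 6 genes together made 32.8 CPM (28.8 to 37.3) in iWAT_DFAT and 128 (120 to 137) in eWAT_DFAT, against 1.96 (1.07 to 3.29) in iWAT_ASPC and 1.83 (0.975 to 3.13) in eWAT_ASPC. *Adipoq* was at 2.07 and 9.72 CPM in the free RNA of the 2 DFAT libraries against 0.0710 and 0.532 in the other cells and 329 and 637 in the chosen ones. The other iWAT_DFAT cells held *Plin1* and *Cfd* at 11.6 and 0.186 CPM where free RNA held 17.0 and 5.93. Levels of the 6 genes in the other cells are set in part by the rule. In iWAT_DFAT the chosen cells took 572 *Cfd* UMIs and left 34 in the others, and took 436 of *Plin1* and left 2119. Nothing about free RNA is read from this contrast. The part of free RNA in calling single cells with few UMIs of the 6 genes was not tested.

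The chosen cells held far more than the 6 genes. A fixed list of 69 further adipocyte genes, from transcription factors to lipolytic enzymes, took 0.856% to 10.1% of the UMIs of each of the 28 iWAT_DFAT cells, median 5.12%, against a median of 0.492% in the other cells. In eWAT_DFAT it took 0.529% to 17.1% of the 136 cells, median 9.37%, against 0.386%. The 99th percentile of the other cells, 1.15% in iWAT_DFAT and 2.34% in eWAT_DFAT, was passed by 26 of the 28 and 105 of the 136 cells, and with the abundant *Fabp4* left out by 25 and 100. The groups overlapped at the low end, and 7 and 3 of the other cells lay above the median of the chosen ones.

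**Figure D1:**
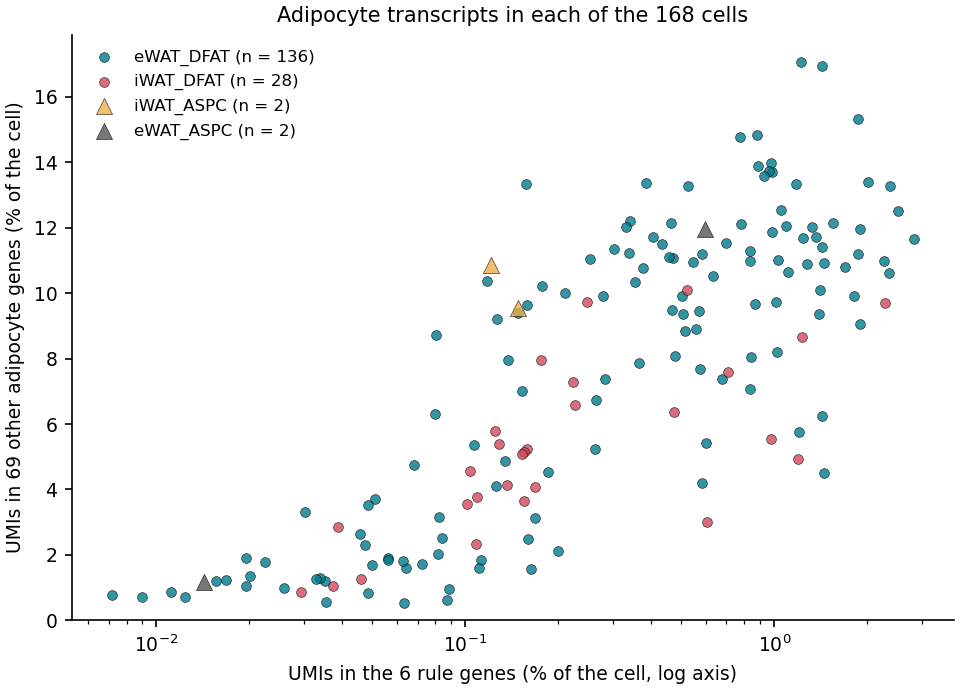
Each point is 1 of the 168 cells, with the share of its UMIs in the 6 genes that chose it on the x axis (percent, log scale) and the share in 69 other adipocyte genes on the y axis (percent). The 136 eWAT_DFAT cells reach 17.1% and the 28 iWAT_DFAT cells 10.1%, and both start below 1%.

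Gene by gene, chosen and other cells of a library were compared by the log2 ratio of their CPM, over genes whose mean of the 2 CPM values was at least 10, and a ratio of at least 2-fold was counted. Because the same cells set the choice and the ratio, no test was made. Of the 69 adipocyte genes, 53 could be compared in iWAT_DFAT, and 41 were at least 2-fold higher in the chosen cells, 1 at least 2-fold lower, beside 10.3% higher and 11.9% lower among all 8430 genes compared. In eWAT_DFAT 55 could be compared, with 43 higher and 1 lower, beside 11.4% higher and 8.79% lower among 8309 genes. A gene under 10 CPM in the other cells could be compared only through its level in the chosen cells and so had to be higher there. This was so for 15 of the 53 genes in iWAT_DFAT and 19 of the 55 in eWAT_DFAT, and of the remaining 38 and 36 genes 26 and 24 were at least 2-fold higher. Conversely, a gene under 10 CPM in the chosen cells could be compared only through the other cells and had to be lower. The median log2 ratios of all genes compared from the list were 3.34 and 3.02, beside −0.10 and −0.07 over all 8430 and 8309 genes. In both libraries together, 39 of 53 were higher and 1, *Cebpd*, was lower, beside 7.24% higher and 5.65% lower among 7857 genes.

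Among the 9 adipogenic transcription factors compared, 4 were at least 2-fold higher and 1 lower in iWAT_DFAT, and 5 higher and 1 lower in eWAT_DFAT. Of those higher, 1 and 3 were compared only through the chosen cells, and of the remaining 8 and 6 genes 3 and 2 were higher. Among all genes compared in iWAT_DFAT and eWAT_DFAT, 10.3% and 11.4% were higher and 11.9% and 8.79% lower. These shares also stand beside the list counts in the paragraphs below. The count of 1 lower factor in 9 was near the lower shares, and nothing is read from it. *Pparg*, the nuclear receptor that drives adipocyte differentiation, was at 412 CPM in the iWAT_DFAT cells against 43.5 in the others (log2 ratio 3.24, 3.06 to 3.42) and at 495 against 63.8 in eWAT_DFAT (2.96, 2.88 to 3.03). *Cebpa*, its partner in keeping the program on, was at 152 against 13.2 CPM (3.53, 3.22 to 3.82) and at 93.0 against 8.78 (3.40, 3.22 to 3.59). *Nr1h3*, the oxysterol receptor LXRα, and *Srebf1*, a regulator of lipid synthesis genes, had log2 ratios of 3.63 and 2.00 in iWAT_DFAT and 3.55 and 2.43 in eWAT_DFAT. *Cebpd*, which is induced at the start of differentiation, was at 74.6 against 316 CPM and 27.9 against 96.7 (−2.08 and −1.79), and *Cebpb*, its early partner, was at 533 against 711 and 475 against 467.

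Lipid uptake was the group with the highest levels. *Fabp4*, the fatty acid carrier of adipocytes, was at 25229 CPM in the iWAT_DFAT cells against 239 in the others (105-fold), and at 40940 against 1462 in eWAT_DFAT (28.0-fold). *Cd36*, a fatty acid transporter, was at 598 against 7.84 CPM and 1042 against 57.5. *Lpl*, the lipase that frees fatty acids from lipoproteins, was at 3009 against 478 and 2886 against 357. Of 10 listed uptake and binding genes, 9 could be compared, 4 of them in each library only through the chosen cells, and all 9 were at least 2-fold higher in both libraries, with median log2 ratios of 6.25 in iWAT_DFAT and 4.81 in eWAT_DFAT. The tenth, *Slc2a4*, the insulin-responsive glucose transporter GLUT4, had 0 UMIs in the 28 iWAT_DFAT cells and 28 UMIs in 21 of the 136 eWAT_DFAT cells.

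For triglyceride synthesis, 6 of 6 compared genes were at least 2-fold higher in each library, of which 2 in iWAT_DFAT and 4 in eWAT_DFAT were compared only through the chosen cells, and *Gpd1*, which makes the glycerol backbone, was at 65.2 against 0.339 CPM in iWAT_DFAT and 147 against 0.510 in eWAT_DFAT. *Dgat1* and *Dgat2*, which add the last fatty acid, had log2 ratios of 3.34 and 3.88 in iWAT_DFAT and 3.62 and 3.90 in eWAT_DFAT. For lipolysis, 7 of 7 were higher in each library, 5 and 3 of them compared only through the chosen cells. *Lipe*, hormone-sensitive lipase, was at 360 CPM in iWAT_DFAT and 361 in eWAT_DFAT against 4.83 and 2.64, and *Pnpla2*, adipose triglyceride lipase, at 662 and 594 against 10.7 and 13.3. *G0s2*, an inhibitor of that lipase, was at 1280 and 984 CPM against 8.42 and 23.9. *Adrb3*, the β3-adrenergic receptor through which catecholamines start lipolysis, was seen in part of the cells: 7 of 28 held 50 UMIs and 56 of 136 held 305, against 13 and 53 UMIs in all other cells of the 2 libraries (log2 ratio 10.09, 9.19 to 11.10, and 8.38, 7.96 to 8.83).

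Lipid droplet coat proteins other than those of the rule gave a similar picture with exceptions. Of 5 genes compared in each library, 4 were at least 2-fold higher, beside 10.3% and 11.4% of all genes compared. *Plin4*, under 10 CPM in the other cells, was compared only through the chosen cells and so had to be higher. Of the remaining 4 genes, 3 were higher in each library. *Plin4* was at 323 against 6.57 CPM in iWAT_DFAT and 205 against 2.95 in eWAT_DFAT, and the droplet assembly genes *Fitm2* and *Bscl2* had log2 ratios of 3.07 and 2.04 in iWAT_DFAT and 2.95 and 2.39 in eWAT_DFAT. *Plin2*, which coats droplets in many cell types, differed less, with log2 ratios of 1.63 and 1.02. *Hilpda*, another lipase inhibitor of the droplet, was at 28.0 against 36.2 and 28.2 against 29.5 CPM, within the 2-fold limits.

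De novo lipogenesis, the making of fatty acids from glucose, was higher in sum, with *Scd1* holding most of the UMIs. The list summed to 5327 against 737 CPM in iWAT_DFAT and 4630 against 451 in eWAT_DFAT, with median log2 ratios of 0.60 and 0.88. *Scd1*, the desaturase that makes monounsaturated fatty acids, was at 4171 against 83.1 CPM in iWAT_DFAT and 3913 against 72.7 in eWAT_DFAT. *Acaca*, acetyl-CoA carboxylase, had log2 ratios of 2.23 and 1.31. *Fasn*, fatty acid synthase, had 0.55 (0.15 to 0.93) and 0.88 (0.69 to 1.07), and *Acly*, which supplies acetyl-CoA, −0.49 (−0.95 to −0.06) and 0.37 (0.17 to 0.57). *Thrsp*, a lipogenic gene, had 0 UMIs in the 28 iWAT_DFAT cells and 127 UMIs in 33 of the eWAT_DFAT cells. Counts were 3 of 8 and 4 of 9 compared genes at least 2-fold higher, and 1 of these 4 in eWAT_DFAT was compared only through the chosen cells. Among all genes compared, 10.3% and 11.4% were higher.

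Among secreted factors and hormone receptors, 8 of 9 compared genes were at least 2-fold higher in iWAT_DFAT and 8 of 10 in eWAT_DFAT, of which 2 and 3 were compared only through the chosen cells. *Rbp4*, retinol-binding protein, had log2 ratios of 3.62 and 3.13, *Agt*, angiotensinogen, 3.76 and 4.14, *Ghr*, the growth hormone receptor, 3.47 and 2.10, and *Insr*, the insulin receptor, 2.44 and 2.68. *Lep*, the satiety hormone leptin of mature fat, had 0 UMIs in the chosen cells of both DFAT libraries and in all their other cells. A count of 0 in 28 and 136 cells allows up to 10.7% and 2.21% of cells with a UMI, taken as 3 counts over the number of cells and not from the exact intervals. *Apoe*, a lipoprotein component made by adipocytes and macrophages, was at 1471 against 17.6 CPM and 1291 against 22.2.

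Thermogenic genes were mostly too low to compare, and the 2 of 10 compared in each library were so only through the chosen cells. *Ppargc1a*, a coactivator of mitochondrial biogenesis, was at 28.0 against 0.934 CPM in iWAT_DFAT and 41.2 against 0.948 in eWAT_DFAT. *Prdm16*, a factor of beige fat, was at 52.8 against 7.30 CPM in iWAT_DFAT and 3.49 against 2.50 in eWAT_DFAT, and *Cox7a1*, a cytochrome oxidase subunit, at 12.4 against 3.86 and 40.3 against 1.63. *Ucp1*, the uncoupling protein of brown and beige fat, had 0 UMIs in the 28 iWAT_DFAT cells and 3 UMIs in 2 eWAT_DFAT cells, and *Elovl3* and *Otop1* had none in either. *Cox8b*, a subunit of cytochrome oxidase typical of thermogenic fat and muscle, had 37 UMIs in 18 of the eWAT_DFAT cells and none in iWAT_DFAT. The respiratory chain list, of 16 nuclear-encoded genes, also holds the ATP synthase subunits *Atp5a1* and *Atp5b* and cytochrome c (*Cycs*). All 16 had positive log2 ratios in both libraries, with medians of 0.63 and 0.99. Of them, 3 in iWAT_DFAT and 8 in eWAT_DFAT reached 2-fold, beside 10.3% and 11.4% of all genes compared. *Uqcr11*, of complex III, was at 595 against 261 CPM and 795 against 280, and *Cox4i1*, of cytochrome oxidase, at 1431 against 704 and 1912 against 829. The mitochondrial share of UMIs, 5.87% and 5.01% in the medians, was higher in the same cells, and its part in these ratios was not tested.

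**Figure D2:**
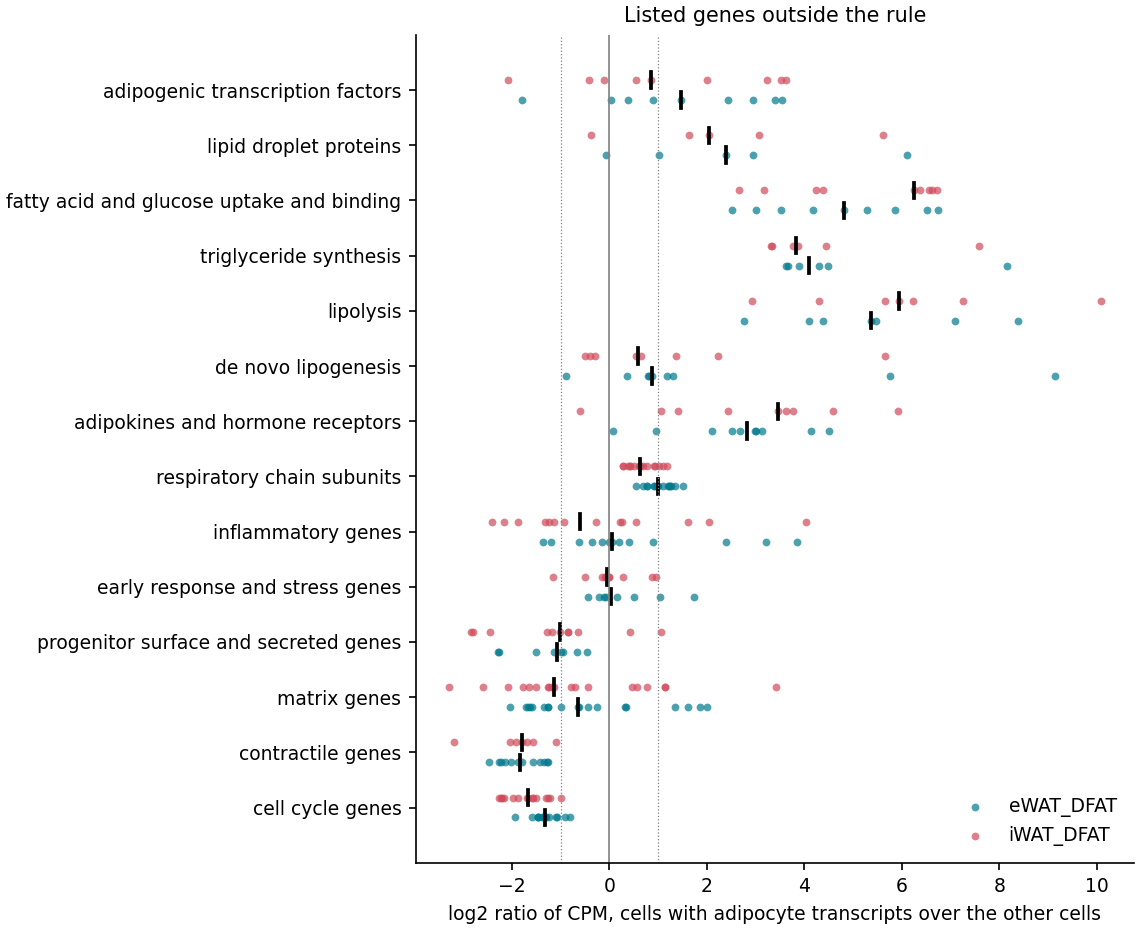
Each dot is a listed gene outside the rule that reached a mean of 10 CPM, placed by the log2 ratio of its CPM in the chosen cells over the other cells of the same library, with iWAT_DFAT above eWAT_DFAT in each row. Black bars mark medians and dotted lines 2-fold, and uptake, triglyceride synthesis and lipolysis lie wholly to the right while contractile and cell cycle genes lie to the left.

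Several genes of stromal progenitors were lower. *Pdgfra*, the receptor that marks adipose progenitors, was at 101 CPM (77.9 to 129) in the iWAT_DFAT cells against 246 in the others, and at 43.5 (36.5 to 51.4) against 96.1 in eWAT_DFAT. *Fbn1*, the microfibril protein fibrillin, had log2 ratios of −2.83 and −2.28, and *Thy1*, a stromal surface protein, −2.44 and −2.25. *Dcn*, the proteoglycan decorin, differed less, at 945 against 1690 CPM and 188 against 256. The free RNA of the 2 libraries held both genes at higher levels than the chosen cells, *Pdgfra* at 236 and 98.1 CPM and *Dcn* at 1723 and 227. With free RNA subtracted at an assumed 10% of UMIs, the *Pdgfra* log2 ratio, iWAT_DFAT, went from −1.29 to −1.52 and the *Pdgfra* log2 ratio, eWAT_DFAT, from −1.14 to −1.36, but the true share of free RNA in the chosen cells was not measured. Of the progenitor surface and secreted genes, 6 of 11 compared in iWAT_DFAT and 4 of 8 in eWAT_DFAT were at least 2-fold lower. Among all genes compared, 11.9% and 8.79% were lower. *Thy1* in eWAT_DFAT, at 4.44 against 21.2 CPM, was compared only through the other cells and so had to be lower. In iWAT_DFAT, *Pi16*, a marker of early progenitors, was at 51.3 against 24.5 CPM from 33 UMIs in 9 cells, and with at least 3 of the 5 genes required its log2 ratio turned from 1.06 to −0.13.

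After thinning to 5000 UMIs, *Pdgfra* was seen in 21.4% (8.30 to 41.0) of the iWAT_DFAT and 10.3% (5.74 to 16.7) of the eWAT_DFAT cells with adipocyte transcripts, against 65.4% and 35.1% of the other cells. Endothelial cells held it in 19.0% (5.45 to 41.9) and 6.16% (2.86 to 11.4), with intervals that overlap those of the chosen cells. At full depth it was seen in 64.3% (44.1 to 81.4) and 36.8% (28.7 to 45.5) of the chosen cells, against 28.6% (11.3 to 52.2) and 19.9% (13.7 to 27.3) of the endothelial ones, so the eWAT_DFAT intervals did not overlap there, at median depths of 20560 and 11663 UMIs. *Lipe* was seen in 78.6% and 66.9% of the thinned chosen cells, against 2.37% and 1.49% of the others and 0 of 21 (which allows up to 14.3%) and 4.79% of endothelial cells. *Fabp4*, *Cd36* and *Pparg* are also genes of fat endothelium, and *Fabp4* was seen in 100% of the thinned chosen cells but also in 81.0% and 91.8% of endothelial cells.

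**Figure D3:**
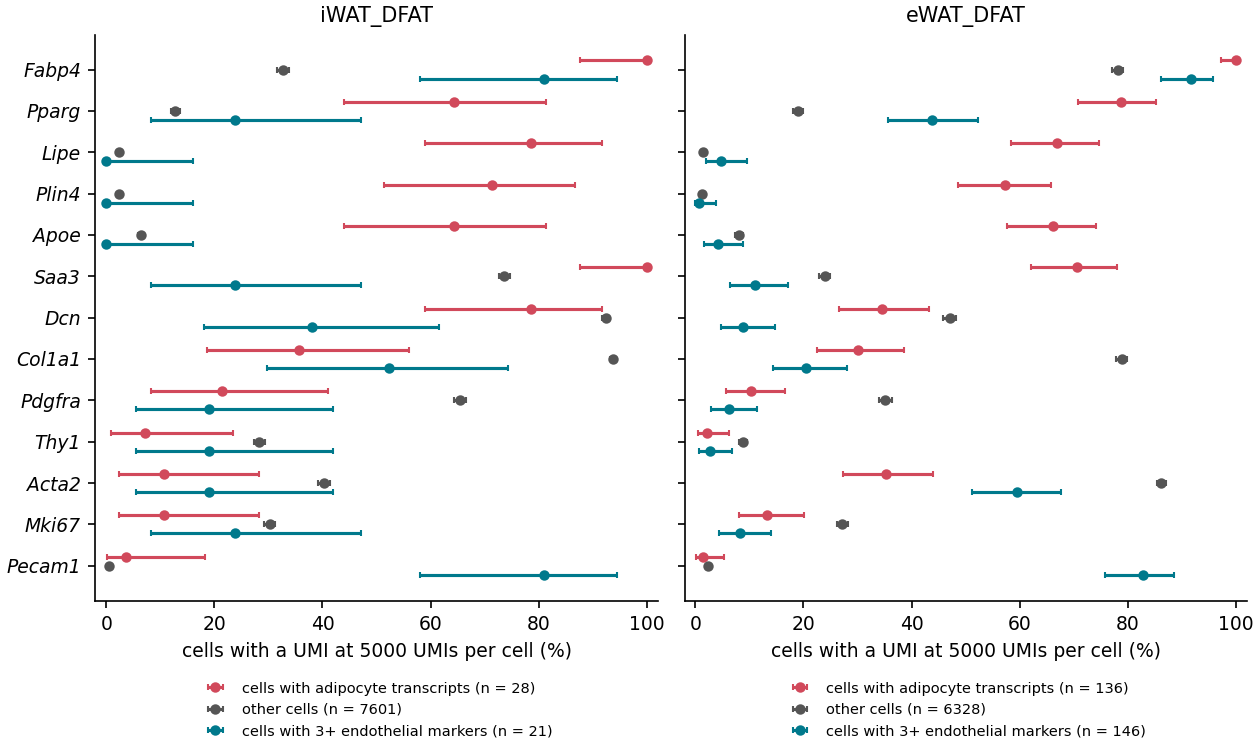
Share of cells with at least 1 UMI of each gene (percent, x axis) after thinning every cell to 5000 UMIs, in the chosen cells (28 and 136), the other cells and endothelial cells (21 and 146), with exact 95% intervals for counting error. *Lipe* is at 78.6% and 66.9% in the chosen cells and at or below 4.79% in the rest, whereas *Pdgfra*, *Col1a1* and *Acta2* are lower in the chosen cells than in the other cells.

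The fibrillar collagen *Col1a1* stood at 496 against 1550 CPM in iWAT_DFAT and 226 against 701 in eWAT_DFAT, with log2 ratios of −1.65 (−1.81 to −1.49) and −1.64 (−1.74 to −1.53). In iWAT_DFAT, 2 of the 28 cells, with doublet scores at the 99.5th and 97.8th percentiles, held 108 and 85 of its 319 UMIs, the median cell held 1, and without the cells of highest doublet score its log2 ratio was −2.72. *Fn1*, fibronectin, had −2.59 and −1.26, *Timp1*, a protease inhibitor, −2.09 and −1.67, and *Mmp3*, a matrix protease, −3.30 and −2.05. Some other collagens, named here after their values were seen, gave positive values, not all of them 2-fold: *Col15a1* had 3.43 and 1.62, *Col6a1* 0.58 and 2.00, *Col6a3* 0.76 and 1.34, and *Col4a1* 1.14 and 0.32. Over the 19 matrix genes, 10 were at least 2-fold lower and 3 higher in iWAT_DFAT, and 8 lower and 4 higher in eWAT_DFAT, with 8 lower and 1 higher in both. Among all genes compared, 11.9% and 8.79% were lower and 10.3% and 11.4% higher, and 5.65% were lower and 7.24% higher in both, and nothing is read from the few higher matrix genes beside these shares.

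Contractile and cell cycle genes were lower throughout. All 7 contractile genes compared in iWAT_DFAT and all 12 in eWAT_DFAT were at least 2-fold lower, with medians of −1.78 and −1.84. *Myl9* in iWAT_DFAT, at 6.21 CPM in the chosen cells, was compared only through the other cells and so had to be lower. *Acta2*, smooth muscle actin, was at 96.3 against 395 CPM in iWAT_DFAT and 788 against 2891 in eWAT_DFAT, and *Tagln*, transgelin, at 93.2 against 277 and 816 against 3618. Of 15 cell cycle genes, 14 in iWAT_DFAT and 13 in eWAT_DFAT were at least 2-fold lower and none higher. *Mcm2* and *Mcm5* in iWAT_DFAT (6.21 and 7.77 CPM in the chosen cells) were compared only through the other cells and had to be lower. The same held for *Mcm2* in eWAT_DFAT (7.30 CPM). Beside both lists, 11.9% and 8.79% of all genes compared were lower. At 5000 UMIs per cell, 6 of the 28 (21.4%, 8.30 to 41.0) and 24 of the 136 cells (17.6%, 11.7 to 25.1) held 3 or more cell cycle UMIs, against 50.7% and 61.1% of the other cells. Without the cells of highest doublet score the contractile medians were −2.55 and −2.62 and the cell cycle median in iWAT_DFAT −2.56.

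The inflammatory genes that DFAT cultures express did not go one way. The acute phase gene *Saa3* was at 12695 against 3081 CPM in iWAT_DFAT and 5536 against 600 in eWAT_DFAT, *Lcn2*, the iron-scavenging lipocalin, at 2785 against 170 and 1764 against 121, and complement *C3* at 826 against 270 and 429 against 81.2. *Il6*, the cytokine, was at 101 against 240 and 43.5 against 111, and *Ptgs2*, cyclooxygenase 2, at 151 against 551 and 133 against 305. *Spp1*, osteopontin, and *Cxcl5*, a neutrophil chemokine, were at least 2-fold lower in iWAT_DFAT alone, with log2 ratios of −2.42 and −2.16 there and −0.62 and −0.15 in eWAT_DFAT. Early response and stress genes, which dissociation can induce, had medians of −0.05 and 0.04, and of these *Fos* was at 488 against 493 CPM in iWAT_DFAT and 187 against 56.2 in eWAT_DFAT.

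Outside the 6 rule genes, the 10 genes with the largest ratios in eWAT_DFAT, among those of mean CPM 20 or more and the same direction in iWAT_DFAT, passed that level through the chosen cells, since they were at or below 2.40 CPM in the other cells. *Adig*, adipogenin, was at 180 against 0.323 CPM in eWAT_DFAT and 148 against 0.273 in iWAT_DFAT (log2 ratio 9.12, 8.73 to 9.53, and 9.08, 8.57 to 9.60). *Lgals12*, a galectin of the lipid droplet, had log2 ratios of 8.83 in eWAT_DFAT and 9.44 in iWAT_DFAT. In the same order, *Acvr1c*, the activin receptor ALK7 of adipocytes, had 8.53 and 7.21, and *Lrg1*, a secreted glycoprotein, 8.16 and 7.58. The acute phase genes *Saa1* and *Saa2* had 8.93 and 8.77 in eWAT_DFAT, seen in 50 and 40 of 136 cells, and 4.36 and 7.23 in iWAT_DFAT, seen in 2 and 5 of 28, and since they are close copies of each other their reads may be split between them. *Itih4* and *Mageb18* had 8.24 and 7.95 in eWAT_DFAT and rested on 3 and 6 UMIs in iWAT_DFAT, and *Adrb3* and *Gpd1*, given above, completed the 10.

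At the other end, *Timp3*, a tissue inhibitor of metalloproteinases, had 0 UMIs in the 28 iWAT_DFAT cells against 56.6 CPM in the others, a log2 ratio of at most −3.60 with the floor of 3 UMIs over the group, and 4.13 against 59.4 CPM in eWAT_DFAT (−3.85, −4.76 to −3.07). *Il11*, a fibrosis-linked cytokine, had −4.50 in eWAT_DFAT and −3.21 from 1 UMI in iWAT_DFAT. *Ptgis*, prostacyclin synthase, had −2.74 in eWAT_DFAT and −2.80 in iWAT_DFAT. In the same order, the basement membrane laminin chain *Lama2* had −2.89 and −2.74, the adhesion molecule *Ncam1* −2.81 and −2.20, and the collagen *Col8a1* −3.23 and −1.90. The other 4, again with eWAT_DFAT first, were *Plscr2* (−3.23 and −2.25), *Kcnab1* (−3.42 and −1.02), *Ptchd4* (−2.75 and −0.53) and *Ecscr* (−2.73 and −1.01). In eWAT_DFAT, all of these 10 genes but *Ptgis* (25.4 CPM) were under the mean CPM limit of 20 in the chosen cells. They were named only through the other cells and so had to be lower. *Kcnab1* in iWAT_DFAT turned to 0.069 when the rule was applied to thinned cells.

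The chosen cells were also split by how many of the 5 further genes they held, which is a description, since these genes made the choice. The 69 adipocyte genes summed to 29067, 52518, 69657 and 72667 CPM in iWAT_DFAT cells with 2, 3, 4 and 5 of them, against 5201 in the other cells. In eWAT_DFAT the sums were 18414, 47104, 97346 and 94762 CPM, against 5033. Cells with *Adipoq* and none of the 5 were at 4972 CPM (4719 to 5235) in iWAT_DFAT and 5576 (5460 to 5693) in eWAT_DFAT, the latter above the other cells, and cells with 2 or more of the 5 but no *Adipoq* were between, at 14453 and 15062 CPM. The number of genes seen depends on depth: median UMIs were 31158, 23245, 17236 and 16770 across the 4 steps in eWAT_DFAT, and 18800, 20472, 24581 and 19066 in iWAT_DFAT, where they rose with the adipocyte sum over the first 3 steps. The median mitochondrial share was 3.01%, 3.76%, 6.47% and 6.50% in eWAT_DFAT and between 5.29% and 7.39% in iWAT_DFAT. The part of depth and mitochondrial share in these sums was not tested.

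The sum of progenitor and matrix genes fell over the first 3 of these steps, while the adipocyte sum rose. Progenitor and matrix genes together summed to 14169, 10219, 6606 and 6538 CPM in eWAT_DFAT and 13723, 9052, 6732 and 8427 in iWAT_DFAT, against 16018 and 19309 in the other cells. *Pdgfra* alone was at 78.7, 40.5, 21.2 and 27.2 CPM in eWAT_DFAT, against 96.1 in the other cells. In iWAT_DFAT it was at 172, 41.5, 60.6 and 81.1 CPM, against 246. The respiratory chain list summed to 7309, 10279, 14438 and 14347 CPM in eWAT_DFAT and 6894, 8833, 9627 and 8234 in iWAT_DFAT, against 5613 and 4840. *Saa3* did not follow the steps in eWAT_DFAT, at 5552, 5182, 5886 and 5553 CPM against 600 in the other cells. In iWAT_DFAT it was at 12782, 15468, 11970 and 8701 CPM against 3081, and the last of these was 16471 without the cell of most UMIs, described next. The contractile sum of 2201 CPM in the 4 iWAT_DFAT cells with all 5 genes came mainly from 1 cell of 47069 UMIs, with 562 UMIs of the 6 genes, 7 of *Pdgfra* and 85 of *Col1a1*, whose doublet score stood at the 97.8th percentile of its library. Without that cell, an exclusion made after the data were seen, the other 3 were at 155 CPM for contractile genes and 5316 for progenitor and matrix genes. The cell of most UMIs among the 49 eWAT_DFAT cells with all 5 genes moved the contractile sum likewise, from 2358 CPM with it to 1117 without it.

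**Figure D4:**
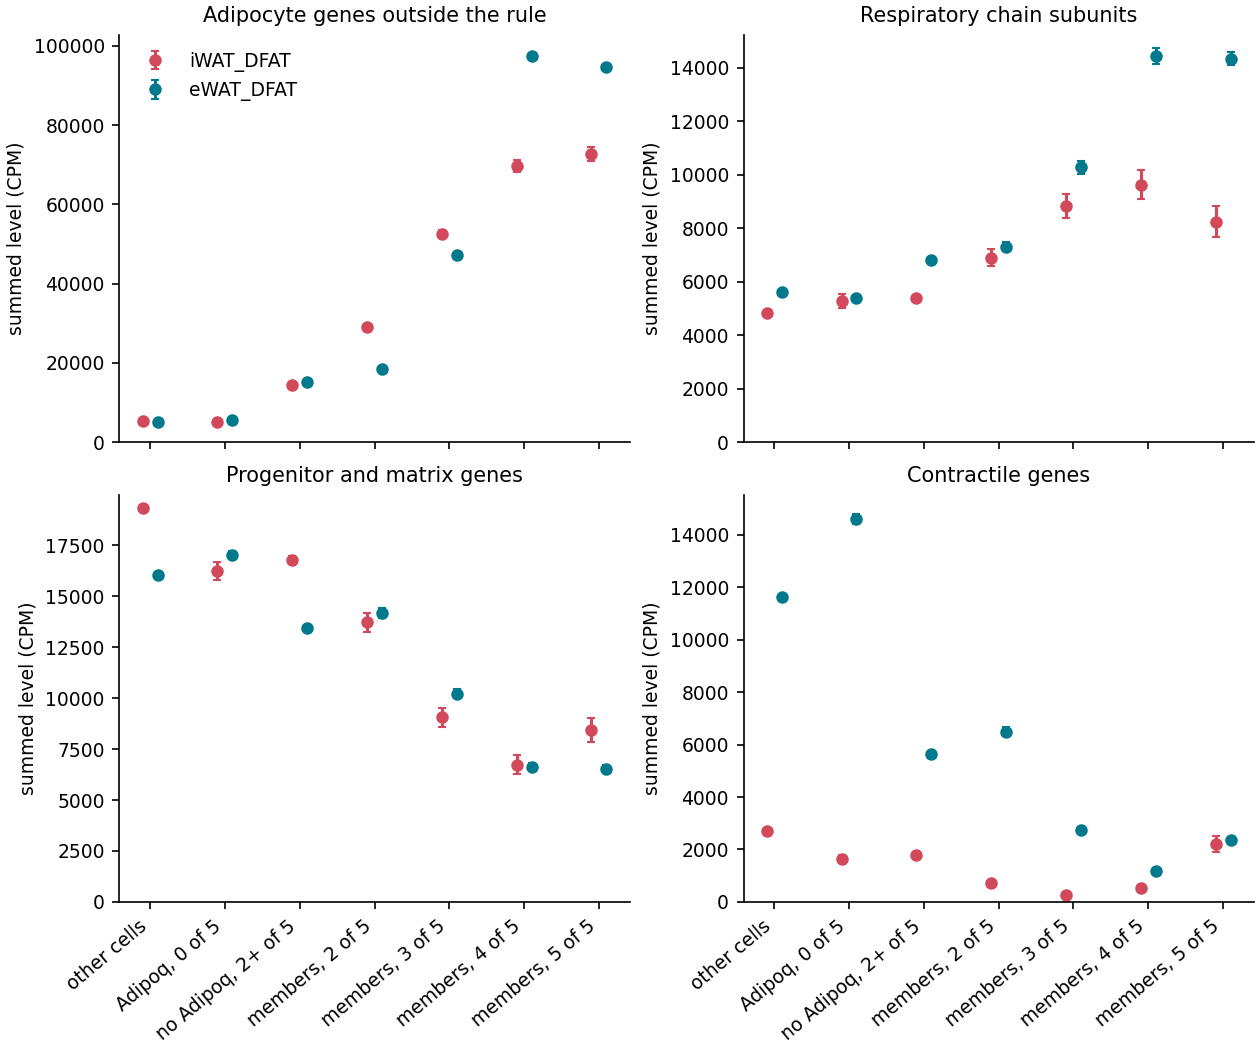
Summed CPM of 4 gene lists in the other cells, in cells just outside the rule, and in the chosen cells split by how many of the 5 further genes they held, with exact 95% intervals for counting error. Adipocyte genes climb from about 5000 CPM in the other cells to 72667 (iWAT_DFAT) and 94762 (eWAT_DFAT) in cells with all 5, and progenitor and matrix genes are at 8427 (5316 without 1 cell) and 6538 there.

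Genes of fat depot identity were set side by side in the chosen cells of the 2 DFAT libraries. *Tbx15* and *Shox2*, developmental factors of subcutaneous fat, were at 55.9 and 32.6 CPM in the 28 iWAT_DFAT cells and at 0 UMIs in the 136 eWAT_DFAT cells. In the other cells their log2 ratios between the libraries were 7.92 and 7.02, beside at least 5.88 and 5.10 here. *Hoxc10*, a homeobox gene of the inguinal depot, was at 66.8 and 2.22 CPM, and in the other cells its log2 ratio between the libraries was 5.61 beside 4.91 here. *En1*, also listed for the inguinal depot, was at 17.1 and 6.66 CPM. Within iWAT_DFAT, 3 of the 5 inguinal genes were at least 2-fold lower in the chosen cells, beside 11.9% of all genes compared. The 5 had a median log2 ratio of −1.08 and summed to 180 against 345 CPM. *Irx1*, under 10 CPM in the chosen cells, was compared only through the other cells. *Wt1*, a factor of visceral fat and mesothelium, had 0 UMIs in the iWAT_DFAT cells and 7 UMIs in 7 eWAT_DFAT cells, where it was at 2.22 CPM against 20.4 in the other cells, so that this depth did not resolve a difference between the chosen cells. *Gata6* and *Nr2f1*, also listed for the epididymal depot, were at 35.7 and 20.2 CPM in iWAT_DFAT and 41.3 and 30.8 in eWAT_DFAT, log2 ratios of −0.21 (−0.91 to 0.44) and −0.61 (−1.57 to 0.23) with intervals that include 0. These are values of 1 library each, set side by side.

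Markers of other cell types were seen in some of the chosen cells, and mostly as a few UMIs. Of the 7 endothelial markers all had UMIs in iWAT_DFAT, 54 in sum (83.9 CPM against 20.1 in the other cells), but 46 of these were in 1 cell of 8393 UMIs that held all 7 together with 51 UMIs of the 6 rule genes. Within iWAT_DFAT, *Pecam1* and *Cdh5*, the defining endothelial genes, were seen in that cell alone, whereas in eWAT_DFAT they were seen in 5 and 2 of the 136 cells. In eWAT_DFAT, the 7 endothelial markers summed to 70 UMIs (22.2 CPM against 46.2), with any in 20 cells and 3 or more in 2. The 6 pericyte markers summed to 114 UMIs in 41 eWAT_DFAT cells (36.2 CPM against 11.7), with 3 or more in 3 cells, and to 12 UMIs in 7 iWAT_DFAT cells (18.6 against 8.85). Most of these were *Notch3* (54 UMIs) and *Abcc9* (38 UMIs) in eWAT_DFAT. Of the 8 macrophage and immune markers, *Ptprc*, *Adgre1*, *Tyrobp* and *Cd52* had 0 UMIs in the chosen cells of both libraries, while the list summed to 5 UMIs in 3 of the 28 iWAT_DFAT cells (7.77 CPM against 20.4) and 52 UMIs in 30 of the 136 eWAT_DFAT cells (16.5 against 17.9), mostly *Csf1r* and *Lyz2*. In eWAT_DFAT, Schwann cell markers summed to 10 UMIs in 7 cells (3.17 CPM against 1.87) with *Sox10* at 0. Mesothelial markers summed to 33 in 15 cells (10.5 against 12.2) and muscle markers to 45 in 12 (14.3 against 36.7). Epithelial markers summed to 1 in 1 cell (0.317 against 3.21) with *Epcam* at 0. Erythroid markers summed to 7 in 7 cells (2.22 against 0.866) with the hemoglobins at 0. In iWAT_DFAT these 5 lists held 1, 3, 0, 0 and 2 UMIs in sum. The levels were 1.55, 4.66, 0, 0 and 3.11 CPM, against 4.47, 5.83, 8.24, 0.169 and 0.525 in the other cells. The part of such transcripts in the results was not tested. Cells that held 3 or more markers of another type were also left out, an exclusion chosen after the data were seen. Without them, 857 of 8409 genes (iWAT_DFAT) and 919 of 8286 (eWAT_DFAT) were at least 2-fold higher, against 866 of 8430 and 947 of 8309.

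The 4 cells of the ASPC libraries were not alike. Both iWAT_ASPC cells, of 12856 and 15674 UMIs, held 4 and 6 *Adipoq*, 11 and 12 *Plin1*, and 803 and 880 *Fabp4* UMIs, no *Cfd*, *Car3* or *Pdgfra*, and 9.54% and 10.9% of UMIs in the 69 adipocyte genes. One eWAT_ASPC cell of 20965 UMIs held 27 *Adipoq*, 43 *Cfd*, 31 *Retn* and 1426 *Fabp4* UMIs, with 11.96% in the 69 genes and no *Pdgfra*. In that share these 3 cells, and also the fourth, lay within the range of the eWAT_DFAT cells, 0.529% to 17.1%. The remaining eWAT_ASPC cell, of 63174 UMIs and 7480 genes, held 2 *Adipoq*, 1 *Retn*, 6 *Plin1* and 299 *Fabp4* UMIs, with 1.17% in the 69 genes and 50 UMIs in 5 of 6 mesothelial markers, and its doublet score stood at the 89.8th percentile.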

How the data were processed

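The deposited files are raw droplet matrices of UMI counts per gene (32285 genes) from 4 libraries. The authors ran Cell Ranger to make them, version 7.0.0 with mm10 in the submitters' processing notes, but 7.1.0 in the headers of 3 libraries and 4 in that of iWAT_ASPC. Per the study's methods, intronic reads were counted. Whether iWAT_ASPC, with its different header, was counted with the same setting is not known, and the part of this in its shares and levels was not tested. CellBender, DoubletFinder and Harmony, named there, were not run here. The depth per sample was 211396227 to 242282812 UMIs, and precision is given by exact 95% Poisson, Clopper-Pearson and conditional binomial intervals for counting error only.

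The cells and gene lists were chosen with earlier results of these data known. UMIs were summed per group, scaled to CPM and compared as log2 ratios over genes of mean CPM 10 or more, with a floor of 3 counts for a group at 0. No test was run, since each group had 1 library. Named genes were the 6 rule genes, the listed genes, and, outside the rule genes, the 10 largest and 10 smallest log2 ratios in eWAT_DFAT (mean CPM 20 or more, same direction in iWAT_DFAT). Of the listed genes, 1 symbol (*Gyk*) did not match, and *Ddit3*, shared by 2 identifiers, was taken from the larger count. Doublet scores were the share of simulated doublets among 30 neighbours (30 components, 2000 genes), cut at 0.8% per 1000 cells. Free RNA was taken from droplets of 1 to 100 UMIs. Promoters were from RefSeq (GRCm38.p6) and gene positions from GENCODE on GRCm38. The ratio and doublet steps were tested on simulated data. Alternatives were other limits on UMIs, genes and mitochondrial share, other gene rules, thinning to 5000 UMIs, doublet removal, equal weight per cell, subtraction of free RNA, other comparison cells, other scaling and other filters. Scripts used Python 3.11.15 with pandas 2.3.3, scipy 1.17.1, scikit-learn 1.9.0, numpy 2.4.6 and matplotlib 3.10.9.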

Additional observations from a re-analysis of the deposited data

Results flagged for a closer look

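Some barcodes outside the limits also met the gene rule and entered no comparison in the report's setting. They entered only alternatives with wider limits. In eWAT_DFAT, 7 of 1371 barcodes with at least 500 but fewer than 5000 UMIs did so, and in iWAT_DFAT 1 of 1313. Among barcodes of 5000 or more UMIs that failed another limit, 7 of 296 met it in iWAT_DFAT and 14 of 351 in eWAT_DFAT. Within the limits, 28 of 7629 and 136 of 6464 did so. In both ASPC libraries, 0 barcodes met it in either range. Of the 7 and 14, 2 and 4 were above the upper UMI or gene limit with a mitochondrial share under 10%. A range was flagged where more than 3 barcodes met the rule, because they carry the signal in data left out of the report's comparisons. The 1 barcode of iWAT_DFAT was below that mark.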

How the results depend on the processing

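No paired analysis was possible because each group had 1 library. Values that stayed within 1.5-fold of those in the report are not listed. The medians of the adipocyte list ranged from 3.15 to 3.63 in iWAT_DFAT and 2.86 to 3.73 in eWAT_DFAT over 17 alternatives, and the 5 lists recomputed (adipocyte, respiratory, progenitor and matrix, contractile, cell cycle) kept their direction. The rule with 3 or more of the 5 genes left 17 cells in iWAT_DFAT, 0 in iWAT_ASPC and 1 in eWAT_ASPC, and the rule on thinned cells 13, 1 and 1. Leaving out cells with markers of another type, added after seeing the data, left 1 in eWAT_ASPC. *Pdgfra* was seen in 64.3% and 36.8% of the iWAT_DFAT and eWAT_DFAT cells at full depth, and in 7.14% and 0.735% of the thinned cells at 2 or more UMIs.

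In iWAT_DFAT, the progenitor and matrix median was −1.98 with 3 or more of the 5 and −1.74 on thinned cells (−1.07 in the report's setting), and the contractile median −1.13 with no upper limits and −2.55 without high doublet scores, which gave −2.56 for cell cycle genes. In eWAT_DFAT, the contractile median was −2.54 with 2 *Adipoq* UMIs, −2.80 on thinned cells, −2.62 without high doublet scores and −2.46 with equal weight per cell. There the cell cycle median was −1.95 with 2 *Adipoq* UMIs and −2.13 on thinned cells, where the adipocyte median was 3.73.

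The number of genes compared changed with the filter. In the report's setting, 866 of 8430 genes (iWAT_DFAT) and 947 of 8309 (eWAT_DFAT) were at least 2-fold higher, and 1002 and 730 lower. At a mean CPM of 50, 377 of 3430 and 394 of 3217 were higher, and 334 and 271 lower. With no filter, 2518 of 13221 and 3406 of 16243 were higher, and 1747 and 1893 lower. The share of higher among these genes was 59.0% with no filter and 46.4% in the report's setting in iWAT_DFAT. There it was 53.0% at a mean CPM of 50 and 50.3% with no upper limits, which also made higher genes the majority. In eWAT_DFAT it was 56.5% in the report's setting (947 higher, 730 lower), 64.3% with no filter, 48.4% on thinned cells, 49.2% with 2 *Adipoq* UMIs, 50.5% with 3 or more of the 5 and 51.5% with equal weight per cell, so that higher genes were the minority under the thinned and 2-UMI rules. On thinned cells 1533 of 8431 genes (iWAT_DFAT) and 1479 of 8362 (eWAT_DFAT) were lower. In eWAT_DFAT, 1232 of 8321 were lower with 2 *Adipoq* UMIs, 1187 of 8345 with 3 or more of the 5 and 1102 of 8361 with equal weight per cell. A turn of sign was counted only where the log2 ratio in the report's setting was at least 1 in size. Such turns were seen in iWAT_DFAT for *Kcnab1* (0.018 with no upper limits, 0.069 on thinned cells), *Cd34* (0.10 on thinned cells, 0.48 with equal weight) and *Pi16* (−0.13 with 3 or more of the 5). Of 5516 values of single genes, 5121 stayed within 1.5-fold, 390 did not and 5 turned by this count. Turns of sign in genes of smaller ratio were not counted. The cause of these changes was not tested. With 28 cells in iWAT_DFAT, genes of few UMIs were not resolved at this depth.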
